A study of Homo sapiens with 6 samples.

Results

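The genes described are 60 ligands and receptors of axon guidance signalling: 11 EPH receptors, 8 ephrins, 19 semaphorins, 9 plexins, 2 neuropilins, 3 SLITs, 4 ROBOs, 2 netrins and the netrin receptors UNC5B and DCC. They were taken by symbol from a table of 60675 genes, and all 60 were found. The list was chosen with earlier results of these data known. The counts come from 6 RNA-seq libraries of PANC1, an established human pancreatic cancer cell line. The RARG-KO group has 3 libraries from cells edited by CRISPR/Cas9 at RARG, the gene of a nuclear receptor for retinoic acid. Guide RNAs on either side of the stretch to be deleted were brought in on a plasmid, and single clones were grown out after puromycin selection. The other 3 libraries are wild-type (WT) PANC1 cells without treatment, grown in the same serum-containing medium. The labels give no number of clones for the edited cells, so a difference between the groups and a difference between a clone and its parent line cannot be told apart. The title of the series puts the question as one of RARG in the proliferation of pancreatic cancer cells.

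Axon guidance genes were named for steering growing nerve fibres, but most are used by epithelial and tumour cells as well. EPH receptors are receptor tyrosine kinases that bind ephrins on the neighbouring cell, and signals run into both cells. A-type ephrins are held in the membrane by a lipid anchor and B-type ephrins by a transmembrane segment. Semaphorins signal through plexins, and most secreted class 3 semaphorins need a neuropilin as co-receptor. SLIT proteins bind ROBO receptors, while netrins bind DCC and UNC5 receptors. Changes in SLIT and ROBO genes have been found in pancreatic tumours, and semaphorins and ephrins are studied there for their part in invasion and the growth of vessels and nerves.

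Depth was 30115051 to 31608089 counts in RARG-KO libraries and 29386408 to 30605114 in WT libraries. A count of 3 corresponded to 0.0937 to 0.104 CPM (reads per 1e6 counted, normalized), a floor that covers counting error only. Mitochondrial transcripts took 5.19% to 5.37% of counts in RARG-KO and 3.87% to 4.0% in WT. RARG itself had 28.4, 24.1 and 28.5 CPM in RARG-KO libraries, against 39.1, 40.6 and 41.6 CPM in WT libraries (log2 fold change -0.58 ± 0.07, SE; edgeR adjusted p = 1.66e-07). These counts cover the whole gene, so they do not show the deleted stretch. All 5 markers of epithelial pancreatic cancer cells (KRT8, KRT18, KRT7, KRT19 and EPCAM) were present, with sums of 1271 to 1348 CPM in RARG-KO and 2898 to 2961 CPM in WT, and all 5 were lower in RARG-KO. None of 5 endothelial markers was abundant enough to be tested. Of 5 leukocyte markers only CD14 was tested and was lower, the list summing to 0.423 to 1.05 CPM in RARG-KO and 1.26 to 1.45 CPM in WT. Of 5 fibroblast markers only COL1A1 was tested and was higher, with sums of 205.7 to 219 CPM in RARG-KO and 99.3 to 104.5 CPM in WT and DCN at 0 reads. Of 6 neuron and Schwann cell markers only SYT1 was tested and was higher, with sums of 96.6 to 102 CPM in RARG-KO and 62.7 to 66.1 CPM in WT and SOX10 at 0 reads. The part of these differences in the results that follow was not tested.

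Of the 60 genes, 49 had enough reads to be tested. In the comparison of RARG-KO with WT, 38 of them differed, 16 higher and 22 lower (edgeR quasi-likelihood test, Benjamini-Hochberg adjusted over all genes). Over all 16996 genes tested 58.0% differed, 28.7% higher and 29.3% lower in RARG-KO. A change of at least 2-fold was found in 14 of the 49, 4 higher and 10 lower, where 12.2% of all genes had one, 4.88% higher and 7.37% lower. The median log2 fold change was -0.16 over the 49 and 0.01 over all genes tested. Libraries of the groups did not overlap in 38 of the 49, against 62.6% of all genes. The share called was larger at high abundance: all 12 tested members with at least 100 CPM in the higher group were called, where 79.2% of all such genes were, and 12 of 18 between 1 and 10 CPM, where 50.9% were. EPHA4, EPHB1, SEMA3D and ROBO4 passed the abundance filter through WT alone and SLIT1 through RARG-KO alone, so the counts above are a description. In bulk RNA, fewer cells with a transcript and less of it per cell cannot be told apart.

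**Figure D1:**
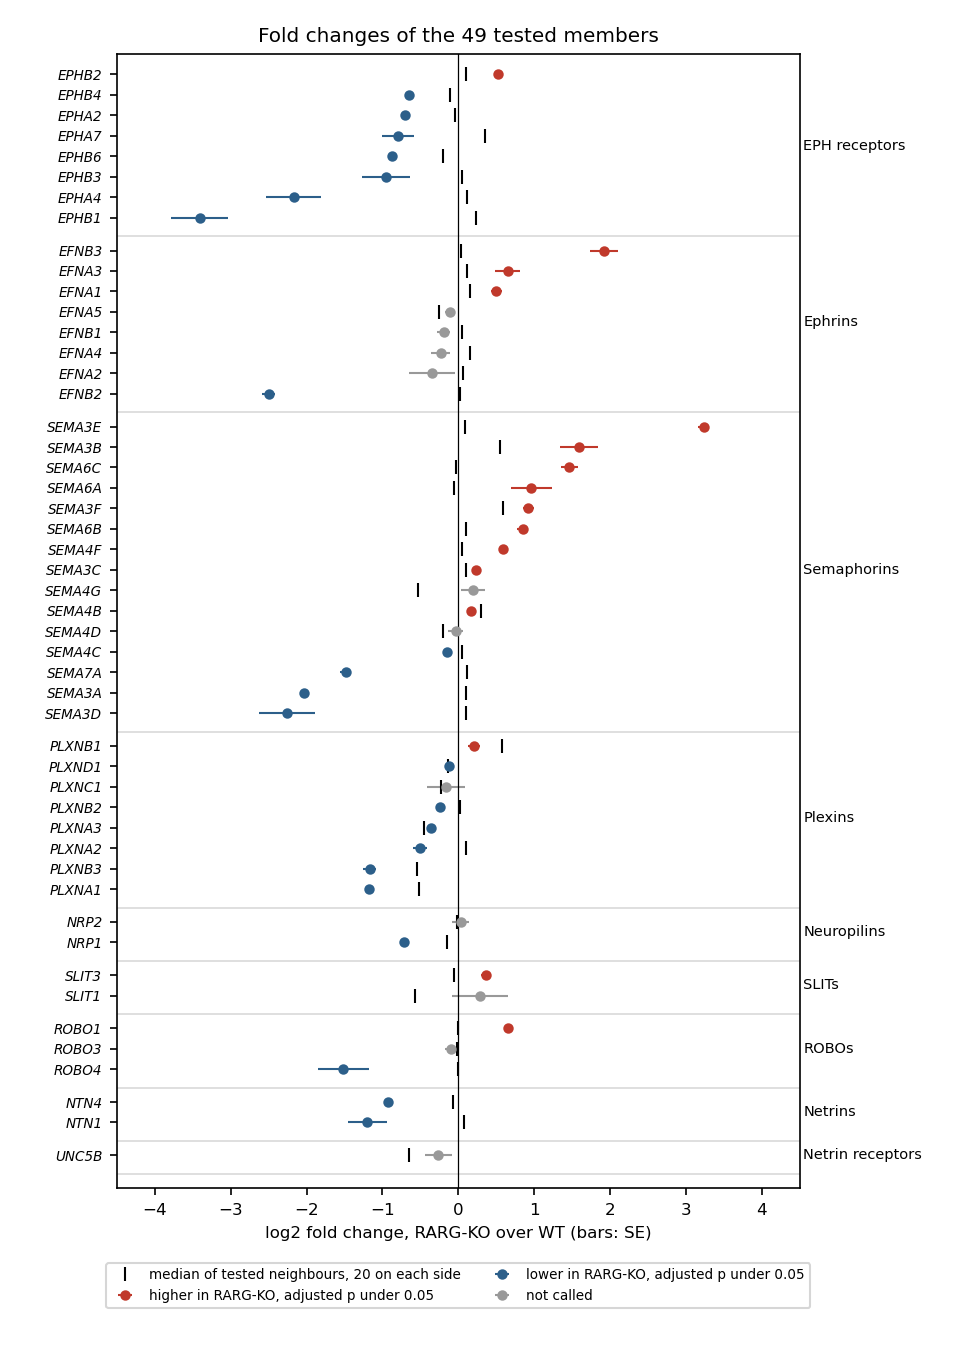
Each dot is the log2 fold change (RARG-KO over WT, bars SE, n = 3 libraries each) of a tested gene, sorted within its family, and the black tick is the median of the tested genes that neighbour it on the chromosome. EPH receptors other than EPHB2 lie left of 0, and semaphorins spread from -2.26 (SEMA3D) to 3.23 (SEMA3E). The ticks of UNC5B, SLIT1, SEMA4G, SEMA3B, SEMA3F, PLXNB1, PLXNA1, PLXNB3 and PLXNA3 lie furthest from 0.

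Ligands and receptors were called in different proportions of up and down, where 28.7% of all tested genes were higher and 29.3% lower. Of 27 tested ligands 13 were higher and 7 lower in RARG-KO, with a median log2 fold change of 0.20. Of 22 tested receptors and co-receptors 3 were higher and 15 lower, with a median of -0.58. The 3 higher receptors were EPHB2, PLXNB1 and ROBO1. All 4 rises of at least 2-fold were in ligands (SEMA3E, EFNB3, SEMA3B and SEMA6C). The falls of that size were in the ligands EFNB2, SEMA3A, SEMA3D, SEMA7A and NTN1 and in the receptors EPHB1, EPHA4, PLXNA1, PLXNB3 and ROBO4. Of these, SEMA3D, EPHB1, EPHA4 and ROBO4 passed the abundance filter through WT alone. The split of the falls between ligands and receptors therefore depends on the filter. No test of ligands against receptors was made.

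**Figure D2:**
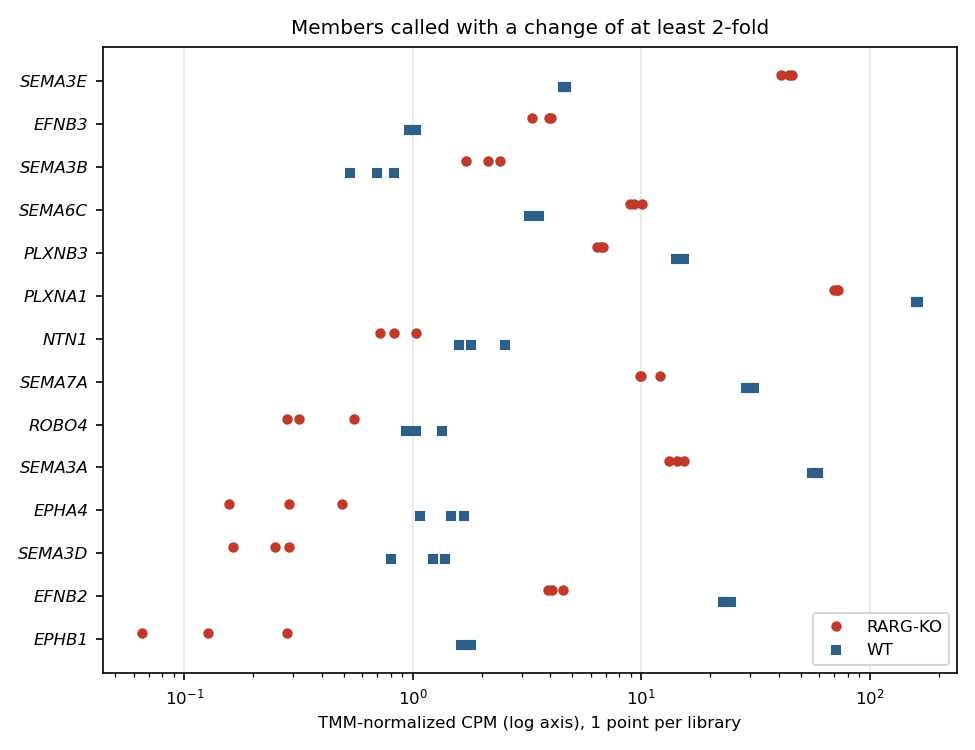
TMM-normalized CPM on a log axis for the 14 called genes with a change of at least 2-fold, 1 point per library, with red circles for RARG-KO and blue squares for WT. SEMA3E, at the top, has RARG-KO values of 40.9 to 45.8 CPM and WT values of 4.53 to 4.69 CPM, and in no gene do the groups overlap.

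Every tested EPH receptor gene of the list differed between the groups, 7 of 8 being lower in RARG-KO. EPHA10, an EPH receptor gene outside the list, was tested and not called (log2 -0.28 ± 0.12, SE; edgeR adjusted p = 0.053). Among all genes tested 58.0% differed and 29.3% were lower. EPHA4 and EPHB1 passed the abundance filter through WT alone. EPHA2, a receptor often abundant in carcinomas, had the highest level per length of the family. It had 304, 278 and 307 CPM in RARG-KO libraries, against 483, 479 and 481 CPM in WT libraries. The WT libraries lay within 5 CPM of each other and all RARG-KO libraries lay below them, at 61.6% of the WT level (log2 fold change -0.70 ± 0.03, SE; edgeR adjusted p = 3.39e-13). EPHB6, whose kinase domain is inactive, averaged 64.1 ± 2.46 CPM in RARG-KO and 117 ± 4.62 CPM in WT (SD, n = 3 each). EPHB4, best known as the receptor of ephrin-B2, averaged 69.3 ± 2.40 CPM in RARG-KO and 109 ± 1.94 CPM in WT (log2 -0.65 ± 0.04, SE; edgeR adjusted p = 1.22e-11). EPHB4 shares 69 of its 6435 exon bases with SLC12A9 on the other strand, which had 24.9% as many reads.

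EPHB2, which binds B-type ephrins and is a marker of crypt stem cells in the gut, was the exception. It had 220.2, 209 and 225 CPM in RARG-KO libraries, against 156, 156 and 145 CPM in WT libraries. All RARG-KO libraries were higher, by a log2 of 0.52 ± 0.04 (SE; edgeR adjusted p = 1.91e-10). Per kilobase of exon, listed receptors summed to 112 ± 5.15 CPM in RARG-KO and 168 ± 1.72 CPM in WT (SD, n = 3 each). EPHA2 made up 63.1% to 64.1% of that sum in RARG-KO and 68.4% to 69.8% in WT. The share of EPHB2 was 15.4% to 15.8% in RARG-KO and 6.96% to 7.41% in WT. Among the B-type receptors alone, EPHB2 led per length in RARG-KO and EPHB6 led in WT.

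The deepest falls of the EPH family were in genes of low abundance. EPHB1 had 9, 2 and 4 reads in RARG-KO libraries (0.281, 0.0651 and 0.127 CPM), against 47, 53 and 54 reads in WT libraries (1.63, 1.77 and 1.80 CPM). WT libraries were close together, and those of RARG-KO stood near the floor. The log2 fold change was -3.41 ± 0.37 (SE; edgeR adjusted p = 1.06e-07), and -4.10 without RARG-KO replicate 1. EPHA4, which binds ephrins of both types, had 0.156, 0.488 and 0.286 CPM in RARG-KO libraries, against 1.07, 1.67 and 1.46 CPM in WT libraries. Its lowest WT library was above its highest RARG-KO library (log2 -2.17 ± 0.36, SE; edgeR adjusted p = 2.58e-05). EPHA7 (log2 -0.79 ± 0.21) and EPHB3 (-0.95 ± 0.32) were lower as well, both below 3 CPM on average in both groups. The call of EPHB3 (edgeR adjusted p = 0.0153) was lost without RARG-KO replicate 1 (0.0510), RARG-KO replicate 2 (0.0659) or WT replicate 1 (0.113).

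Ephrins, the ligands of these receptors, moved apart from each other. EFNB2, the gene of ephrin-B2, known for its part in arteries and at the borders between tissues, had the strongest change of the family. It had 4.56, 4.07 and 3.91 CPM in RARG-KO libraries, against 23.6, 24.8 and 22.7 CPM in WT libraries. RARG-KO libraries kept 17.7% of the WT level, with no overlap (log2 -2.50 ± 0.09, SE; edgeR adjusted p = 1.12e-15). EFNB3, another B-type ephrin, had 3.97, 3.32 and 4.01 CPM in RARG-KO libraries, against 0.969, 0.967 and 1.03 CPM in WT libraries. It rose by a log2 of 1.92 ± 0.19 (SE; edgeR adjusted p = 1.75e-08), so the B-type ephrins EFNB2 and EFNB3 went in opposite directions. EFNB1 had 13.06 to 14.99 CPM in RARG-KO libraries and 14.05 to 17.03 CPM in WT libraries and was not called (edgeR adjusted p = 0.0620). It passed without RARG-KO replicate 3 (0.0352) or WT replicate 1 (0.0115), and relative to its neighbours (0.0187). Of the summed level per length of B-type ephrins, EFNB2 took 11.9% to 14.3% in RARG-KO and 45.3% to 50.8% in WT, and EFNB1 took 66.4% to 69.1% in RARG-KO and 45.9% to 51.5% in WT. EFNB3 took 17.8% to 19.4% in RARG-KO and 2.91% to 3.26% in WT.

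Of the A-type ephrins, EFNA1 and EFNA3 were higher in RARG-KO and the other three were not called. EFNA1, first found as a gene induced by tumour necrosis factor and a main ligand of EPHA2, was the ephrin with the highest level per length in both groups. It had 22.6, 21.6 and 22.8 CPM in RARG-KO libraries, against 13.8, 16.5 and 16.9 CPM in WT libraries, with every RARG-KO library higher. The log2 fold change was 0.50 ± 0.08 (SE; edgeR adjusted p = 9.54e-06), opposite in sign to that of EPHA2. EFNA3 rose by 0.65 ± 0.16 (SE; edgeR adjusted p = 0.00175). EFNA4, which lies beside EFNA3 and EFNA1 on chromosome 1, averaged 4.51 ± 0.511 CPM in RARG-KO and 5.30 ± 0.152 CPM in WT (SD, n = 3 each; log2 -0.23 ± 0.12, SE). EFNA5 (log2 -0.11 ± 0.06) and EFNA2 (-0.34 ± 0.31) had overlapping groups. Summed per length, the ephrins came to 25.7 ± 0.892 CPM per kilobase in RARG-KO and 27.3 ± 0.886 in WT (SD, n = 3 each), values that lie much closer together than those of several single members.

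**Figure D3:**
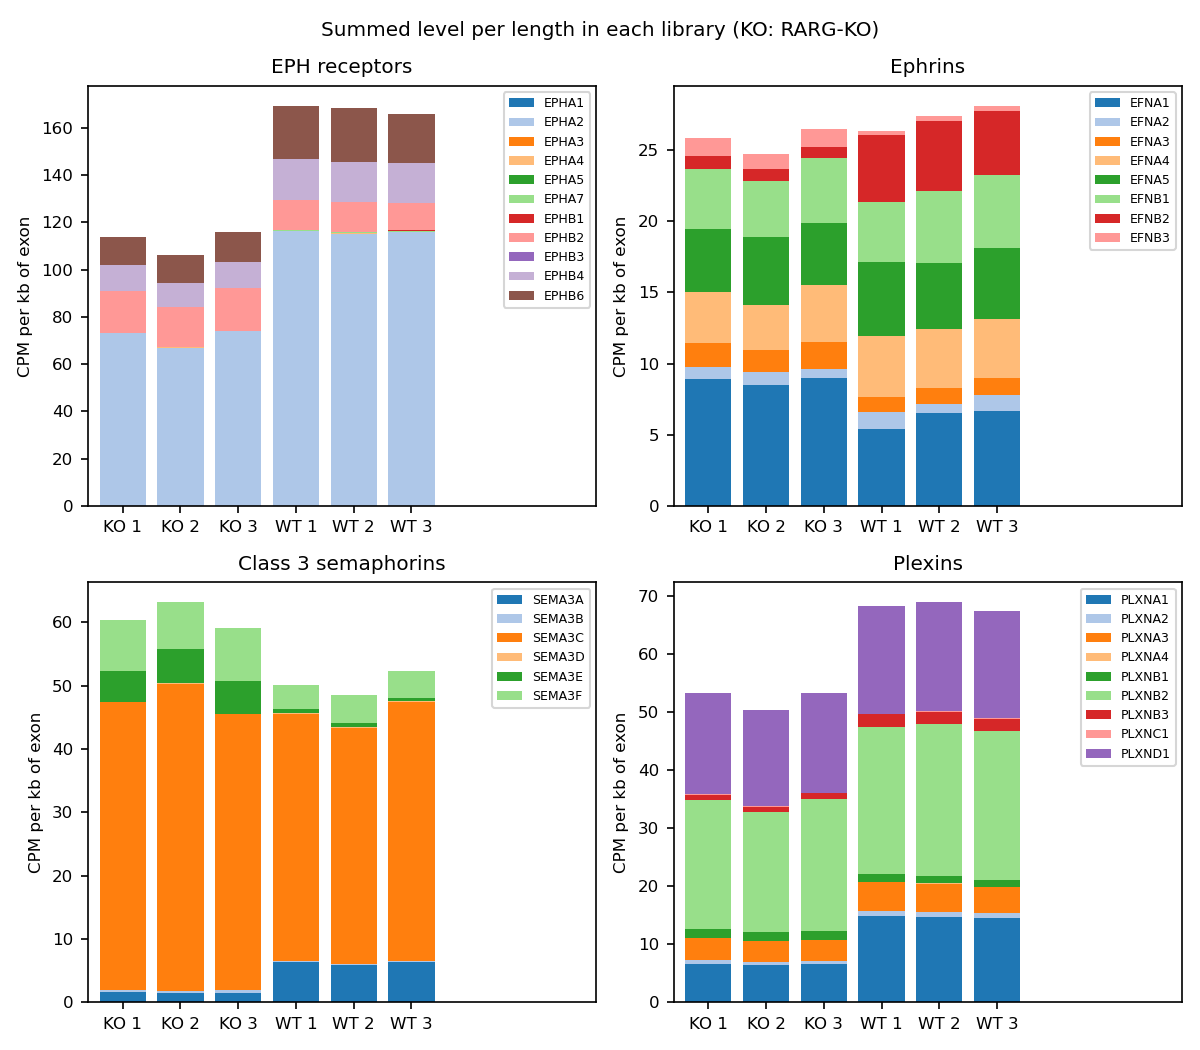
Stacked bars of TMM-normalized CPM per kilobase of exon, 1 bar per library (KO is RARG-KO). They cover the listed EPH receptors, ephrins, class 3 semaphorins and plexins. EPH receptor sums are 106 to 116 in RARG-KO and 166 to 169 in WT, plexin sums are 50.4 to 53.3 in RARG-KO and 67.4 to 68.8 in WT, and ephrin sums are near each other although EFNB2 shrinks and EFNA1 grows in RARG-KO.

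Class 3 semaphorins of the 60, which are secreted, were all called, 4 higher and 2 lower in RARG-KO, where 58.0% of all tested genes were called. SEMA3G, of the same class but outside the 60, had 53, 50 and 53 reads in RARG-KO libraries, against 6, 5 and 11 in WT libraries. It was called higher (log2 2.72 ± 0.33, SE; edgeR adjusted p = 3.73e-07) and passed the abundance filter through RARG-KO alone. SEMA3E, whose protein binds plexin-D1 directly, had the greatest rise among the 49 tested genes. It had 40.9, 45.8 and 44.2 CPM in RARG-KO libraries, against 4.53, 4.67 and 4.69 CPM in WT libraries. RARG-KO libraries were 9.41 times as high, with a wide gap between the groups (log2 3.23 ± 0.08, SE; edgeR adjusted p = 2.55e-18). SEMA3A, a repellent that signals through neuropilin-1 and A-type plexins, had 15.3, 13.2 and 14.3 CPM in RARG-KO libraries, against 59.5, 56.0 and 59.4 CPM in WT libraries. It fell to 24.5% of the WT level (log2 -2.03 ± 0.06, SE; edgeR adjusted p = 2.05e-16). SEMA3D was rare, with 8, 5 and 9 reads in RARG-KO libraries and 40, 24 and 37 reads in WT libraries. All of its RARG-KO libraries were below those of WT (log2 -2.26 ± 0.37, SE; edgeR adjusted p = 2.22e-05). By length, SEMA3C led the 6 listed genes of the class throughout, with 73.6% to 76.8% of their summed level in RARG-KO and 76.9% to 78.3% in WT. SEMA3C had 285, 304 and 273 CPM in RARG-KO libraries and 245, 234 and 256 CPM in WT libraries, a small rise (log2 0.23 ± 0.04, SE; edgeR adjusted p = 4.34e-05). SEMA3E made up 8.05% to 8.87% of that sum in RARG-KO and 1.07% to 1.14% in WT. SEMA3A made up 2.23% to 2.71% in RARG-KO and 12.1% to 12.7% in WT.

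SEMA3C, SEMA3E, SEMA3A and SEMA3D lie in this order on chromosome 7, within 4.44 Mb (80742538 to 85186855, GRCh38), all on the minus strand. Between and beside them in that stretch only CACNA2D1 and PCLO were also tested. CACNA2D1, a calcium channel subunit gene, was at a log2 of -0.27 and PCLO, which encodes a protein of nerve endings, at 0.37. SEMA3E and SEMA3A are direct neighbours among the tested genes, and their log2 fold changes were 3.23 and -2.03. The 100 other genes tested within 10 Mb of the start of SEMA3E had a median of 0.05 and ranged from -2.53 (CLDN3) to 1.33 (CCDC146). Of these 100, 57 were called and 6 were called with at least a 2-fold change. With the median of neighbouring genes removed, SEMA3E stood at 3.15, SEMA3A at -2.13 and SEMA3D at -2.36.

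**Figure D4:**
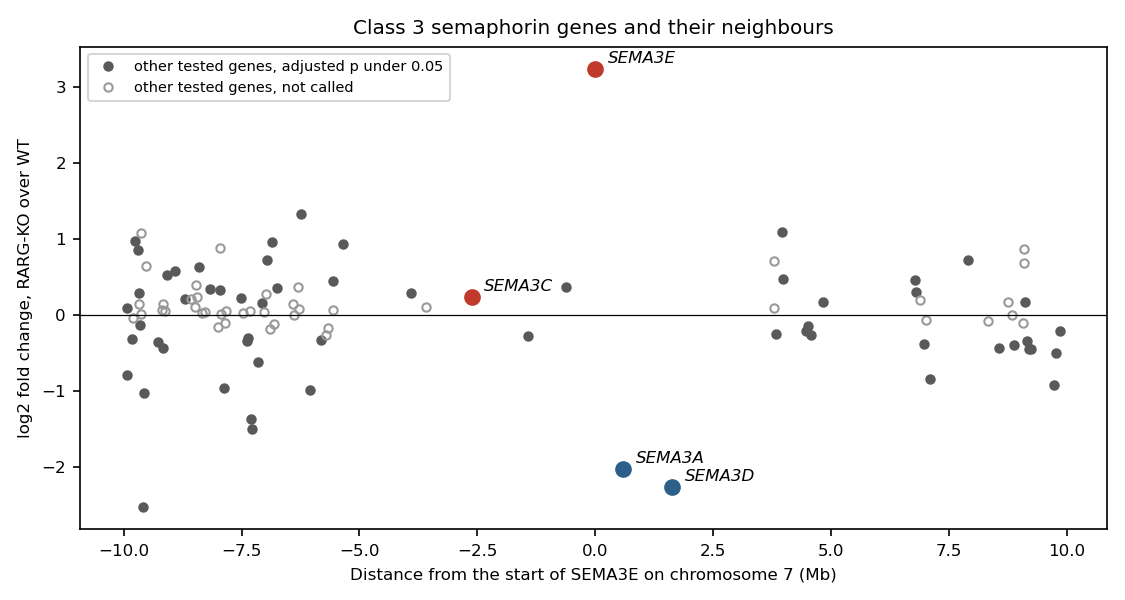
The x axis gives the distance in Mb from the start of SEMA3E on chromosome 7 and the y axis the log2 fold change, RARG-KO over WT, of every tested gene within 10 Mb. SEMA3E (3.23) is above and SEMA3A (-2.03) and SEMA3D (-2.26) are below nearly all of their neighbours, whose median is 0.05, and filled grey dots are neighbours that were called.

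RefSeq promoter windows (GRCh38.p14, 250 bases before to 50 after a gene start) were present for 53 of the 60 genes, in 84 windows. One of SEMA3E and that of SEMA3D are shown because these genes share a chromosome stretch and moved in opposite directions, and that of EFNB2 because it was the ephrin that changed most. Capitals mark the core hexamers of retinoid receptor elements that were searched for on both strands, namely AGGTCA, then AGTTCA, further GGGTCA, and lastly GGTTCA, a minus-strand match being shown as its reverse complement.
SEMA3E, chr7:83649090-83649389, minus strand: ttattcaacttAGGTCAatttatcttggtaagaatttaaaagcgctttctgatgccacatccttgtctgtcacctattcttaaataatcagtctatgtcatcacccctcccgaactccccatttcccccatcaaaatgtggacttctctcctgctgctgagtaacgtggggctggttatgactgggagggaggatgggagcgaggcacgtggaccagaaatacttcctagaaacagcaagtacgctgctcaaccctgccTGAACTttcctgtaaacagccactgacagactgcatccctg
SEMA3D, chr7:85187007-85187306, minus strand: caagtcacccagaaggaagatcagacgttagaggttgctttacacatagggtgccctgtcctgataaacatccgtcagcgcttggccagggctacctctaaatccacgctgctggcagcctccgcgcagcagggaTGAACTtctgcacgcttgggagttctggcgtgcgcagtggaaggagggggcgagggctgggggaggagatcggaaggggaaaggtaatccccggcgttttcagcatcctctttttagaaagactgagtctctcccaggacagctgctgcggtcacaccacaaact
EFNB2, chr13:106535613-106535912, minus strand: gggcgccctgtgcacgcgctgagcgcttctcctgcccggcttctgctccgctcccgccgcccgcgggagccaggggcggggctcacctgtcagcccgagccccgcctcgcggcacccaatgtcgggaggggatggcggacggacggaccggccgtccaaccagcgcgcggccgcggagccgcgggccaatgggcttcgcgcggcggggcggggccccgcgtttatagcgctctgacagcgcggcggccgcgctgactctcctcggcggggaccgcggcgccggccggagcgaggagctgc
The printed SEMA3E window holds 2 such hexamers, that of SEMA3D 1 and that of EFNB2 0. SEMA3E has another window, not printed, at chr7:83641382-83641681, which holds 0 hexamers and has 35.7% G and C and 1 CpG pair. The printed windows differ in composition, with 47.3% G and C and 6 CpG pairs in SEMA3E, 57.0% and 14 in SEMA3D, and 78.7% and 49 in EFNB2. A hexamer occurred in 33 of the 84 windows (39.3%) and in 38.6% of all 35116 windows of this length. A direct repeat of these hexamers with 1, 2 or 5 bases between them, the arrangement bound by retinoid receptor dimers, was in 1 of the 84 windows, one of SEMA4A, and in 0.259% of all. The matches are a description of these letters only.

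SEMA3B and SEMA3F, which lie close together on the short arm of chromosome 3 and are known as candidate tumour suppressors, were both higher in RARG-KO. SEMA3B had 1.72, 2.41 and 2.13 CPM in RARG-KO libraries, against 0.830, 0.534 and 0.699 CPM in WT libraries, with no overlap (log2 1.60 ± 0.25, SE; edgeR adjusted p = 1.42e-05). SEMA3F averaged 38.3 ± 2.65 CPM in RARG-KO and 20.2 ± 1.38 CPM in WT (SD, n = 3 each; log2 0.93 ± 0.07, SE; edgeR adjusted p = 2.32e-10). Their chromosome neighbours were higher too, with medians of 0.55 for SEMA3B and 0.59 for SEMA3F. Relative to these medians, SEMA3B stood at 1.05 and SEMA3F at 0.34, both still past the threshold.

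Of 5 tested class 4 semaphorins, which are membrane-bound, 2 were higher and 1 lower in RARG-KO, where 58.0% of all tested genes were called. SEMA4B had the highest level per length of all 60 genes in RARG-KO, and the second highest after EPHA2 in WT. It had 628, 581 and 631 CPM in RARG-KO libraries, against 539.7, 553 and 538 CPM in WT libraries. RARG-KO libraries were higher by a log2 of 0.17 ± 0.03 (SE; edgeR adjusted p = 0.000102), less than the median of its neighbours (0.30), and relative to them it was lower (-0.12, adjusted p = 0.00274). SEMA4F rose by 0.59 ± 0.06 (SE; edgeR adjusted p = 2.73e-08). SEMA4C was called lower (-0.14 ± 0.06, SE; edgeR adjusted p = 0.0366) although 1 of its WT libraries lay at the level of the RARG-KO libraries, and the call was lost without any one of RARG-KO replicates 2 and 3 and WT replicates 1 and 2 (adjusted p 0.0618 to 0.146), with upper-quartile factors (0.117) and with a replicate block (0.0572). SEMA4D, whose protein binds plexin-B1, was at -0.04 ± 0.10 and SEMA4G at 0.20 ± 0.16, both with overlapping groups. SEMA4G shares exon sequence with MRPL43 on the other strand, which had 842% as many reads.

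All 3 tested class 6 semaphorins, transmembrane ligands of A-type plexins, were higher in RARG-KO, as were 28.7% of all tested genes. SEMA6C had 10.1, 8.96 and 9.32 CPM in RARG-KO libraries, against 3.56, 3.47 and 3.23 CPM in WT libraries. Every RARG-KO library was more than 2 times every WT library (log2 1.47 ± 0.11, SE; edgeR adjusted p = 2.96e-10). SEMA6B averaged 35.5 ± 3.56 CPM in RARG-KO and 19.7 ± 0.767 CPM in WT (SD, n = 3 each; log2 0.85 ± 0.07, SE; edgeR adjusted p = 2.01e-09). SEMA6A, near 1 CPM, rose by 0.96 ± 0.27 (SE; edgeR adjusted p = 0.00436), and the antisense gene SEMA6A-AS1 had 22.7% as many reads. SEMA7A, held by a lipid anchor and known to bind integrins and plexin-C1, went the other way. It had 10.0, 9.90 and 12.1 CPM in RARG-KO libraries, against 28.8, 29.7 and 31.3 CPM in WT libraries, and fell to 35.7% of the WT level (log2 -1.49 ± 0.08, SE; edgeR adjusted p = 1.04e-12). Its receptor gene PLXNC1 averaged 1.25 ± 0.395 CPM in RARG-KO and 1.39 ± 0.111 CPM in WT and was not called, and CEP83 on the other strand had 2012% as many reads as PLXNC1.

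Plexin genes, which encode the receptors of semaphorins, were mostly lower in RARG-KO, 6 of 8 tested, with PLXNB1 higher. Among all genes tested 29.3% were lower. PLXNA1, which signals for class 3 and class 6 semaphorins, had 72.6, 69.8 and 71.5 CPM in RARG-KO libraries, against 163, 161 and 159 CPM in WT libraries. It was at 44.3% of the WT level (log2 -1.18 ± 0.04, SE; edgeR adjusted p = 1.42e-16). PLXNB3 had 6.81, 6.64 and 6.40 CPM in RARG-KO libraries, against 15.3, 15.1 and 14.2 CPM in WT libraries (log2 -1.17 ± 0.08, SE; edgeR adjusted p = 1.73e-10). It overlaps SRPK3 on the same strand, which had 27.6% as many reads. Neighbouring genes were lower as well, with medians of -0.52 at PLXNA1 and -0.54 at PLXNB3, and relative to them PLXNA1 stood at -0.66 and PLXNB3 at -0.63, under a 2-fold change but past the threshold. PLXNA2 fell by a log2 of 0.51 ± 0.10 (SE; edgeR adjusted p = 0.000144), against a regional median of 0.11.

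PLXNB2, the plexin with the highest level per length, had 161, 150.3 and 165 CPM in RARG-KO libraries, against 184, 189.8 and 187 CPM in WT libraries. All RARG-KO libraries were lower (log2 -0.23 ± 0.04, SE; edgeR adjusted p = 1.45e-05). PLXND1, the receptor of SEMA3E, had 169.8, 160.3 and 168 CPM in RARG-KO libraries, against 179, 181 and 179.5 CPM in WT libraries. Its fall was small (-0.12 ± 0.03, SE; edgeR adjusted p = 0.00526) beside the rise of SEMA3E, close to the median of its neighbours (-0.13), and its call was lost with upper-quartile factors (0.0514). PLXNA3 fell by a log2 of 0.36 ± 0.05 (SE; edgeR adjusted p = 4.70e-06) in a region with a median of -0.46. Relative to that median it was at 0.10 and not called. LAGE3 on the other strand had 88.2% as many reads as PLXNA3 but overlaps only 11 of its 11710 exon bases. PLXNB1 was called higher (0.20 ± 0.08, SE; edgeR adjusted p = 0.0320) in the stretch of chromosome 3 that also holds SEMA3B and SEMA3F. Relative to its neighbours, whose median was 0.58, it was lower (-0.37, adjusted p = 0.000412). The call of PLXNB1 was also lost without RARG-KO replicate 2 or 3 or WT replicate 2 or 3 (0.0553 to 0.144), with DESeq2 (0.0811), with a replicate block (0.0564) and without a filter (0.0594). Summed per kilobase, plexins came to 52.3 ± 1.70 CPM in RARG-KO and 68.1 ± 0.720 CPM in WT (SD, n = 3 each). The share of PLXNA1 in that sum was 12.3% to 12.7% in RARG-KO and 21.4% to 21.8% in WT.

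NRP1, the gene of neuropilin-1, a co-receptor of class 3 semaphorins and of vascular endothelial growth factor, was lower in RARG-KO. It had 102, 112 and 107 CPM in RARG-KO libraries, against 181, 169 and 175 CPM in WT libraries, without overlap (log2 -0.71 ± 0.04, SE; edgeR adjusted p = 1.98e-12). NRP2, the co-receptor preferred by SEMA3F, averaged 6.34 ± 0.378 CPM in RARG-KO and 6.20 ± 0.551 CPM in WT (SD, n = 3 each), with overlapping groups (log2 0.03 ± 0.11, SE). NRP1 held 95.0% to 95.5% of the summed neuropilin level per length in RARG-KO and 96.7% to 97.4% in WT. SEMA3A, NRP1 and PLXNA1, which encode a ligand and its receptor complex, were all lower in RARG-KO.

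In the SLIT and ROBO families the most abundant ligand and the most abundant receptor were both higher in RARG-KO. SLIT3 had 37.6, 31.3 and 34.6 CPM in RARG-KO libraries, against 27.7, 26.7 and 26.0 CPM in WT libraries. The lowest RARG-KO library was above the highest WT library (log2 0.37 ± 0.07, SE; edgeR adjusted p = 8.09e-05). SLIT1 averaged 0.563 ± 0.0418 CPM in RARG-KO and 0.459 ± 0.196 CPM in WT and was not called. ROBO1 had 110.5, 114 and 109 CPM in RARG-KO libraries, against 70.2, 73.3 and 68.8 CPM in WT libraries. It rose by a log2 of 0.65 ± 0.04 (SE; edgeR adjusted p = 1.14e-11), with a regional median of 0.00, and held 76.9% to 80.2% of the ROBO level per length in RARG-KO and 67.5% to 68.9% in WT. ROBO3, which in commissural neurons of mammals does not bind SLITs, averaged 18.9 ± 1.68 CPM in RARG-KO and 20.2 ± 0.971 CPM in WT (log2 -0.09 ± 0.07, SE). ROBO4, mainly a gene of endothelial cells, had 9, 17 and 10 reads in RARG-KO libraries (0.281, 0.554 and 0.318 CPM), against 39, 31 and 28 reads in WT libraries (1.35, 1.03 and 0.931 CPM). It was lower by every library (log2 -1.52 ± 0.34, SE; edgeR adjusted p = 0.000651). The 5 endothelial markers summed to 0.163 to 0.286 CPM in RARG-KO and 0.173 to 0.499 CPM in WT, below ROBO4 alone in WT, and their part in the ROBO4 difference was not tested.

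Both listed netrin genes, NTN4 and NTN1, were lower in RARG-KO, as were 29.3% of all tested genes. Outside the list, NTNG2 was called lower (log2 -0.50 ± 0.12, SE; edgeR adjusted p = 0.00128). NTN3 was tested and not called (log2 -0.61 ± 0.51, SE; edgeR adjusted p = 0.321), and NTN5 and NTNG1 had too few reads to be tested. NTN4, a netrin of basement membranes that binds laminins, held 99.2% or more of the listed netrin level per length in every library. It had 105, 101 and 109 CPM in RARG-KO libraries, against 192, 204 and 204 CPM in WT libraries. It fell to 52.6% of the WT level (log2 -0.93 ± 0.04, SE; edgeR adjusted p = 1.57e-14). NTN1, the classical attractant, had 1.03, 0.716 and 0.827 CPM in RARG-KO libraries, against 1.59, 1.80 and 2.53 CPM in WT libraries. Its WT libraries were spread but all higher (log2 -1.20 ± 0.25, SE; edgeR adjusted p = 0.000360). UNC5B, a netrin receptor, had 2.65, 2.38 and 4.01 CPM in RARG-KO libraries and 3.25, 4.04 and 3.56 CPM in WT libraries. RARG-KO replicate 3 lay among the WT libraries and UNC5B was not called (log2 -0.26 ± 0.18, SE; edgeR adjusted p = 0.225), though it passed without that library (-0.52, 0.0214). The median of its neighbours was -0.65.

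The remaining 11 genes had too few reads to be tested. DCC, the main attractive netrin receptor and a gene often lost in colorectal tumours, had 0 reads in all 6 libraries, which allows up to the floor of 3 reads per library. SLIT2 had 3 reads in all RARG-KO libraries together and 1 in WT, ROBO2 had 2 and 1, and EPHA3 had 7 and 1. SEMA5A had 0 reads in RARG-KO and 2 in WT, SEMA5B had 0 in RARG-KO and 9 in WT, and SEMA6D had 2 in RARG-KO and 16 in WT. The sums were 12 reads in RARG-KO and 18 in WT for SEMA4A, 13 and 29 for EPHA5, 17 and 14 for EPHA1, and 24 and 37 for PLXNA4. Of this set only the libraries of EPHA3, EPHA5, SEMA5B and SEMA6D did not overlap between groups. For EPHA3 this rests on 3, 2 and 2 reads in RARG-KO against 1, 0 and 0 in WT. For SEMA5B it rests on 0, 0 and 0 reads against 6, 1 and 2. The share of other untested genes without overlap was not computed, so no group difference is read from these 4. For EPHA1, ZYX on the other strand had many times its reads.

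Of 64 tested genes of these pathways outside the 60, 19 were higher and 31 lower in RARG-KO (78.1% called). The share called over all genes tested was 58.0%, with 28.7% higher and 29.3% lower, and it was larger at high abundance. A change of at least 2-fold was found in 14.1% of the 64, against 12.2% of all genes. Among those with such a change, SEMA3G passed the abundance filter through RARG-KO alone, and RGMA and FLRT3 through WT alone. This share and the counts are therefore a description. These shares over all genes also stand beside the list counts that follow. Of 12 tested among 18 further guidance ligands and receptors, 5 were higher and 4 lower in RARG-KO. UNC5C, a netrin receptor, averaged 16.6 ± 1.99 CPM in RARG-KO and 5.97 ± 0.596 CPM in WT (SD, n = 3 each; log2 1.47 ± 0.10, SE; edgeR adjusted p = 9.13e-11), and NEO1, the gene of neogenin, a relative of DCC, rose by 0.93 ± 0.10. RGMB, a ligand of neogenin, fell by a log2 of 0.91 ± 0.07 and FLRT3, an adhesion protein gene that also binds UNC5 receptors, by 3.76 ± 0.38. FLRT3 had 12, 3 and 2 reads in RARG-KO libraries, against 65, 62 and 95 reads in WT libraries. FLRT3 passed the abundance filter through WT alone, and its log2 fold change was -4.88 without RARG-KO replicate 1. RGMB shares exons with the antisense gene RGMB-AS1, which had 14.2% as many reads.

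Of 10 tested mediators of ephrin and EPH signals, 3 were higher and 3 lower, with a median log2 of -0.04. NGEF, an exchange factor bound by EPH receptors, rose by 0.46 ± 0.05, and FYN, a kinase used by ephrin-A signalling, fell by 0.94 ± 0.12. NCK2 (0.22 ± 0.06) and RASA1 (-0.17 ± 0.05), which act on receptor signals, had smaller changes, and CCNH on the other strand had 63.8% as many reads as RASA1. Of 18 tested mediators of semaphorins and plexins, 4 were higher and 10 lower, with a median of -0.23. L1CAM, an adhesion molecule that pairs with neuropilin-1, averaged 22.2 ± 1.17 CPM in RARG-KO and 135 ± 4.42 CPM in WT (SD, n = 3 each; log2 -2.61 ± 0.05, SE; edgeR adjusted p = 3.50e-20). MICAL2, an oxidoreductase acting on actin, fell by 0.95 ± 0.03. KDR, a growth factor receptor that forms complexes with neuropilins, rose by 1.93 ± 0.16, and MICAL1 by 0.27 ± 0.04. MICAL1 shares exon sequence with ZBTB24, which had 54.5% as many reads, and stood at 0.03 relative to its neighbours.

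Of 15 tested mediators of SLIT, ROBO and netrin signals, 5 were higher and 9 lower, with a median of -0.17. ABLIM1, an actin-binding protein gene, fell by a log2 of 2.02 ± 0.05 in a region with a median of -0.57, and MAGED1, a partner of UNC5 receptors, rose by 0.57 ± 0.04. SOS1 rose by 0.29 ± 0.04. TRIO, an exchange factor downstream of DCC, fell by 0.44 ± 0.03, less than its neighbours (-0.56), and was higher relative to them (0.12). Of 9 actin regulators, 2 were higher and 5 lower, with a median of -0.13. RHOA rose by 0.48 ± 0.03 on chromosome 3, where its neighbours had a median of 0.61, and was lower relative to them (-0.13). CDC42 (-0.30 ± 0.04) and LIMK1 (-0.36 ± 0.07) were lower and LIMK2 was higher (0.33 ± 0.08), while PAK1 and CFL1 were not called.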

How the data were processed

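The authors deposited raw read counts, whole numbers with no scaling, for 60675 Ensembl genes in the 6 libraries. Per the submitters' processing notes, the tools were featureCounts, HISAT2 2.1.0, DESeq2 and Bowtie2 2.2.3 and the builds GRCh38 and hg38. No source used here gives their roles, the annotation release or the use of strand. The extraction text per the labels' protocols also holds a line on isolating chromatin with an antibody. The counts were taken as RNA counts, as the labels' molecule and library source give them.

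Columns were matched to libraries by name and libraries to groups by title. All 60 members were matched by symbol in GENCODE release 29 (GRCh38), which held 57055 of the identifiers and gave positions and exon lengths. RARG-KO was compared with WT over the whole table by edgeR 4.0.16 (glmQLFit, then glmQLFTest) in R 4.3.3. Trimmed mean of M-values (TMM) factors, filterByExpr at its defaults and group as the only term were used, with Benjamini-Hochberg adjustment over all genes tested and a threshold of 0.05. CPM values are TMM-normalized, and SE is the absolute log2 fold change over the square root of F. The step was tested on simulated counts. Levels per length are CPM per kilobase of the union of a gene's exons.

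Replicates within a group differed by more than sampling noise (chi-square per degree of freedom 2.14 to 5.14), so every library was counted. The labels do not say whether they were separate cultures, so p-values measure only the spread between these libraries, which may be technical. Alternatives were DESeq2 1.42.0, upper-quartile factors, other filters, leaving out each library, a replicate block, and removal of the median log2 fold change of the 20 tested neighbours on each side of a gene. The members and lists were chosen with earlier results of these data known. Values per library are given for called members with at least a 2-fold change and at least 1 CPM in the higher group, and for the member with the highest level per length in each family. In each other list, up to 2 higher and 2 lower genes with the smallest adjusted p are named. Any further gene was named after its values were seen.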

Additional observations from a re-analysis of the deposited data

How the results depend on the processing

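Calls of members were counted again under 12 alternatives. The number called was 38 in the comparison as reported and 32 to 39 under the others, and the 2-fold calls were 14 as reported and 10 to 16. Of the 2-fold falls, 10 as reported, 6 were left with a filter at a mean of 1 CPM, because EPHA4, EPHB1, SEMA3D and ROBO4 lie below it. Of the 38 called members, 32 kept direction and call in every alternative that tested them, and EPHB3, PLXNA3, PLXNB1, PLXND1, SEMA4B and SEMA4C did not. Of the members not called, EFNA4, EFNB1, SEMA4G and UNC5B became called in at least 1 alternative, and the sign of EFNA5, SEMA4D, PLXNC1, NRP2 and UNC5B changed in at least 1 without a call. With regional medians removed, direction turned in these genes called before or after the removal: SEMA4B (-0.12), PLXNA3 (0.10), PLXNB1 (-0.37), PLXND1 (0.016), TIAM1 (-0.17), NCK1 (-0.042), TRIO (0.12), DOCK1 (0.023) and RHOA (-0.13). It also turned, with no call either way, for UNC5B (0.39), EFNA5 (0.13), SEMA4D (0.16), PLXNC1 (0.07) and FES (-0.14). Newly called there were EFNA4 (-0.39), EFNB1 (-0.25) and SEMA4G (0.73) and, outside the members, VAV2, TIAM1, FARP1, ARHGEF11, ARHGEF12, SRGAP3 and PAK1. Calls lost there were those of PLXNA3, PLXND1, NCK1, DOCK1, CRMP1, MICAL1, MICAL3, RRAS, SRGAP2, PTK2, ROCK1 and ROCK2. In the same setting ephrin mediators called lower numbered 5, semaphorin mediators called higher 2 and actin regulators called higher 1. Leaving out single libraries gave 36 to 38 calls of members and 9081 to 9958 over all genes. Deviations from group means in same-numbered libraries had correlations of 0.01, -0.05 and -0.01. Differently numbered libraries had values from -0.049 to 0.056. Such values show no pairing by number but cannot exclude it, because counting noise also lowers them. With a replicate block 36 members and 9258 genes were called. The cause of these changes was not tested where none is given. Depth limits the members under about 1 CPM, where a few reads set the fold change.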
